A study of Mus musculus with 12 samples.

Results

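Livers of germ-free mice fell into a pair of states by their level of Cish messenger RNA, and the states were compared across all genes. The states were defined from the measured Cish level and not from a label: a liver with a Cish level of at least 8 CPM (counts of the gene per 1000000 counts of the library) was placed in the high-Cish state, and a liver below that in the low-Cish state. Of 12 livers, 5 were high and 7 were low. Each library is called a liver here, although no label says that each is a separate animal. The high-Cish livers were PBS 2, PBS 3 and PBS 4 and ghrelin 2 and ghrelin 4, and the low-Cish livers were PBS 1, PBS 5 and PBS 6 and ghrelin 1, ghrelin 3, ghrelin 5 and ghrelin 6. No label records either state, so neither is a group of the study. All animals were C57BL/6j males raised without a microbiota, 13 to 16 weeks old, and total RNA of the liver was sequenced. Of the 12 libraries, 6 came from animals given rat ghrelin, 10 µg per mouse and day for 5 days. The other 6 came from animals given phosphate-buffered saline (PBS) by the same subcutaneous route. Injections were at zeitgeber time 2, counted in hours from lights on, and the label of every sample gives the same time for the tissue.

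Cish encodes CIS, a member of the suppressor of cytokine signalling (SOCS) family. Growth hormone binds its receptor on hepatocytes, JAK2 phosphorylates STAT5, and STAT5 enters the nucleus and switches on Cish, whose product then dampens the receptor signal. Bcl6 encodes a transcriptional repressor that binds sites shared with STAT5, and in liver its transcript is known to be repressed by growth hormone through STAT5. Male rodents release growth hormone in pulses, which are known to maintain the male pattern of liver gene expression.

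The promoters of Cish and Bcl6 are shown because both genes are known to respond to STAT5 and because Bcl6 was named together with Cish when the states were set. The sequences are stretches of 150 bases from RefSeq promoter windows of build GRCm38.p6, which run from 250 bases before to 50 bases after a transcript start, and capitals mark the motif TTCNNNGAA, the core letters of the sites that STAT5 binds. The motif reads the same on both strands.
Cish, chr9:107296529-107296678, plus strand: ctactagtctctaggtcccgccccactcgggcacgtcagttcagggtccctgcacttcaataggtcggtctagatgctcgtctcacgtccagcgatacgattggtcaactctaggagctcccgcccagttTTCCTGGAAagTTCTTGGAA
Bcl6, upstream start, chr16:23988903-23989052, minus strand: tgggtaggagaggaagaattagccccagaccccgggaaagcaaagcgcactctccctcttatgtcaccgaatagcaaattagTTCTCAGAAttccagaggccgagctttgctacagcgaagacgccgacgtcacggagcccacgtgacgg
Bcl6, downstream start, chr16:23981334-23981483, minus strand: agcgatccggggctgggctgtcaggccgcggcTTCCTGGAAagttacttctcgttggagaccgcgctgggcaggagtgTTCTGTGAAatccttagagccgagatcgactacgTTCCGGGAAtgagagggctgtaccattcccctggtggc
The Cish window held 2 motifs, both at the transcript start. The window of the upstream Bcl6 start held 1, and that of the downstream start held 3. Of all 32851 windows 8.3% held the motif, and among tested genes with a window 789 of 9133 did (8.64%). A match of letters is a description and not a binding site.

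The Cish level, as CPM of the library total, was 20.7, 13.7 and 26.4 in the high-Cish PBS livers and 13.2 and 16.1 in the high-Cish ghrelin livers. In the low-Cish livers it was 2.32, 4.71 and 3.01 with PBS and 1.99, 1.0, 2.54 and 4.63 with ghrelin. These values chose the states and carry no test. The liver nearest to the threshold from above was ghrelin 2, with 208 counts and 13.2 CPM, and the nearest from below was PBS 5, with 105 counts and 4.71 CPM. On the same scale Bcl6 was 5.88, 10.6 and 4.85 in the high-Cish PBS livers and 17.1 and 5.08 in the high-Cish ghrelin livers. In the low-Cish livers it was 59.2, 45.4 and 48.4 with PBS and 71.9, 74.8, 30.3 and 46.6 with ghrelin. The 5 high-Cish livers all lay below the 7 low-Cish livers. Ghrelin 2, the high-Cish liver with the least Cish, also had the most Bcl6 of the high-Cish livers. Bcl6 had been named from these libraries beforehand, so its opposite pattern is given as a description and supports nothing here. The fitted log2 fold change of Bcl6, high over low with treatment as covariate, was -2.62 (SE 0.30).

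**Figure D1:**
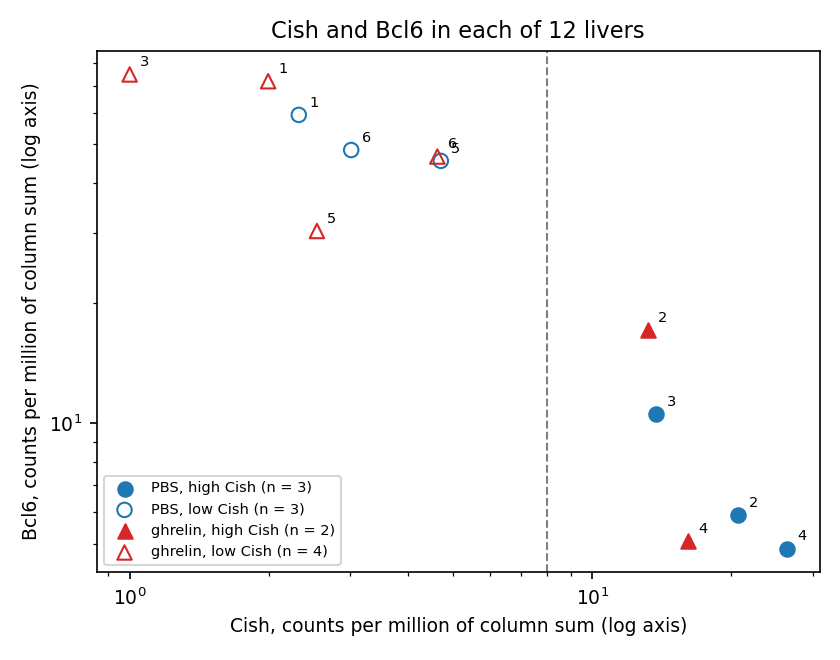
Cish on the horizontal axis and Bcl6 on the vertical axis, both as CPM of the library total on log axes, 1 point per liver with its replicate number; filled points are high-Cish and open points low-Cish, and the dashed line is the threshold of 8. The 5 high-Cish livers lie at 4.85 to 17.1 for Bcl6 and the 7 low-Cish livers at 30.3 to 74.8.

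Depth did not separate the states. Total counts were 15775059 to 22302533 and averaged 19794921 ± 2541637 (SD, n = 5) in the high-Cish and 19714667 ± 2236798 (SD, n = 7) in the low-Cish livers, and an exact two-sided permutation test of the difference of 80254 gave p = 0.957. The states overlapped along the first principal component of log2 CPM, which held 20.8% of the variance: the high-Cish livers lay between -31.2 and 3.82, and the low-Cish livers between -1.09 and 22.6. Ghrelin 2 was the high-Cish liver that lay among the low-Cish ones. Hepatocyte transcripts dominated every library, and the Alb transcript alone took 5.65% to 6.75% of counts in high-Cish and 4.89% to 7.86% in low-Cish livers.

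Beyond Cish and Bcl6, the genes that differed most firmly were Foxa2 and Sds. Across 14169 tested genes other than Cish, 42 genes differed between the states (0.296%) at a Benjamini-Hochberg adjusted p under 0.05 in edgeR's quasi-likelihood test with treatment as covariate. Of these, 24 were higher (0.169%) and 18, Bcl6 among them, were lower (0.127%) in high-Cish livers. At an unadjusted p under 0.05 the count was 1984 (14.0%). The fold changes were mostly modest: 10 of the 42 reached 1 on the log2 scale, the higher genes ran from 0.33 to 1.35, and the lower ones from -0.37 to -2.62. In 22 of the 42 the CPM of the high-Cish and low-Cish livers did not overlap, 12 of them higher and 10 lower, beside 0.925% of all tested genes, 0.536% higher and 0.388% lower.

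The number of called genes moved strongly with single livers. It fell from 42 to 12 without PBS 2, to 3 without PBS 3, PBS 4 or PBS 5, to 4 without PBS 6, to 12 without ghrelin 1, to 10 without ghrelin 3, to 21 without ghrelin 4 and to 13 without ghrelin 6. It rose to 72 without PBS 1, to 253 without ghrelin 2 and to 174 without ghrelin 5. Bcl6, Foxa2 and Sds were called in all 12 of these fits, and the other 39 genes in 2 to 8 of them. Counting PBS 5, the low-Cish liver with the most Cish, as high left 0 genes in edgeR's test, with 958 at an unadjusted p under 0.05. Counting ghrelin 2 as low gave 236, of which 30 were among the 42. The direction of all 42 genes was the same in every alternative fit that was run. Those fits reuse the libraries that picked the 42, so this is read as a description.

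**Figure D2:**
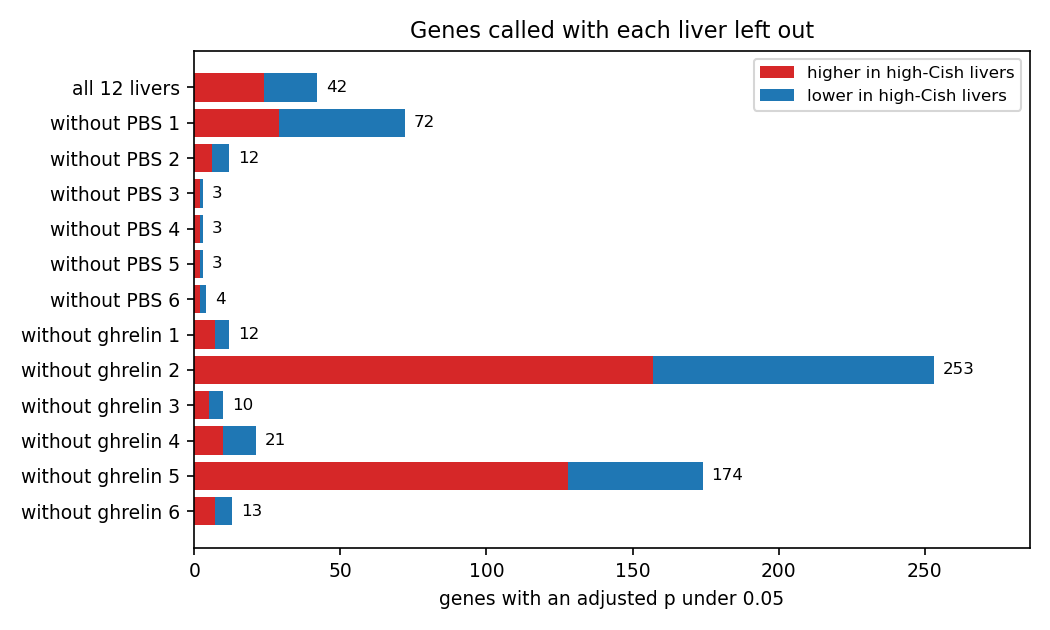
Number of genes with an adjusted p under 0.05 in edgeR's quasi-likelihood test, for all 12 livers and with each liver left out, split into genes higher (red) and lower (blue) in high-Cish livers. The bar for all livers holds 42 genes, the shortest bars 3 and the longest, without ghrelin 2, 253.

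Foxa2 encodes a forkhead transcription factor that opens chromatin at liver enhancers and is known for its part in fasting metabolism. Its gene lies on chromosome 2 at 148042877 to 148046969 (GRCm38, minus strand). Its normalised CPM was 41.1, 36.3 and 37.6 in the high-Cish PBS livers and 31.0 and 29.2 in the high-Cish ghrelin livers, against 15.4, 16.2 and 17.5 in the low-Cish PBS livers and 14.3, 21.9, 16.9 and 20.3 in the low-Cish ghrelin livers. Every high-Cish liver lay above every low-Cish liver. The means were 35.0 ± 4.89 (SD, n = 5) and 17.5 ± 2.70 (SD, n = 7), 0.99 on the log2 scale (SE 0.11, adjusted p = 0.00255 in edgeR's quasi-likelihood test). With each liver left out the adjusted p lay between 0.00131 and 0.0200. Its relative Foxa1, named after its values were seen, also had no overlap, at 8.51 to 10.8 CPM in high-Cish and 4.52 to 7.28 CPM in low-Cish livers, but its log2 fold change of 0.53 (SE 0.12) did not pass (adjusted p = 0.0709).

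Sds encodes serine dehydratase, which turns serine into pyruvate for gluconeogenesis. Its gene lies on chromosome 5 at 120476526 to 120483932 (plus strand). The CPM of Sds was 345, 317 and 285 in the high-Cish PBS livers and 210 and 214 in the high-Cish ghrelin livers, against 170, 182 and 163 with PBS and 160, 136, 163 and 110 with ghrelin in the low-Cish livers. The states did not overlap here either. The mean was 274 ± 60.7 (SD, n = 5) against 155 ± 24.2 (SD, n = 7), 0.74 on the log2 scale (SE 0.10, adjusted p = 0.00958), and the adjusted p stayed between 0.00158 and 0.0490 with each liver left out.

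Among the called higher genes Il1r1 had the largest fold change. Il1r1, the signalling receptor of interleukin 1, was at 153, 227 and 304 CPM in the high-Cish PBS livers and at 114 and 203 CPM in the high-Cish ghrelin livers. The low-Cish livers held 45.7 to 140 CPM of Il1r1 with a median of 72.9, so ghrelin 2 lay within their range, and the log2 fold change was 1.35 (SE 0.26, adjusted p = 0.0443). Mfsd2a, a transporter of lysophospholipids, was at 20.8 to 74.0 CPM (median 41.3) in high-Cish and 4.85 to 30.8 CPM (median 17.0) in low-Cish livers (log2 fold change 1.30, SE 0.24, adjusted p = 0.0406). For Mfsd2a the states overlapped over all livers and not within either treatment. Prg4, the secreted lubricant proteoglycan lubricin, had 9.61 to 35.2 against 6.18 to 10.6 CPM, with a log2 fold change of 1.27 (SE 0.24). Phlda1, a pleckstrin homology protein, had 19.2 to 35.1 against 7.76 to 23.7 CPM (1.20, SE 0.22), and the highest low-Cish value was that of ghrelin 5.

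Id3, an inhibitor of helix-loop-helix transcription factors, was at 33.3 to 35.6 CPM in the high-Cish and 13.2 to 15.1 CPM in the low-Cish PBS livers. With ghrelin it was at 42.9 and 53.0 CPM in the high-Cish livers and at 22.7 to 39.3 CPM in the low-Cish livers, so that the states were apart within each treatment but not over all livers. Its log2 fold change was 0.93 (SE 0.15, adjusted p = 0.0303). Lpin1, which encodes the phosphatidate phosphatase lipin 1 and is induced by fasting, had 801 to 1192 against 405 to 628 CPM with PBS, and 475 and 674 against 319 to 455 CPM with ghrelin (log2 fold change 0.78, SE 0.14, adjusted p = 0.0335). Saa4, the constitutive serum amyloid A, had 351 to 464 against 178 to 407 CPM (0.93, SE 0.18, adjusted p = 0.0495), where again ghrelin 5 was the highest low-Cish liver.

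Other genes had smaller or lower-level differences without overlap. Rrm2, a subunit of ribonucleotide reductase, was at 4.71 to 8.82 CPM in high-Cish and 3.10 to 4.60 CPM in low-Cish livers (log2 fold change 0.82). Rgs3, a regulator of G protein signalling, was at 6.10 to 7.62 against 3.33 to 5.28 CPM (0.77, SE 0.12, adjusted p = 0.0219) and kept its call in 8 of the 12 fits with a liver left out. Pex26, which anchors the peroxisome import machinery, was at 27.5 to 33.4 against 14.8 to 22.8 CPM (0.54), and the retinol dehydrogenase Rdh13 at 9.36 to 13.6 against 6.87 to 9.01 CPM (0.53). Phf15 (0.60) and Efhd2 (0.49), whose states overlapped, completed the 15 highest fold changes among the called higher genes with a standard symbol. Pfkfb2, a kinase and phosphatase that sets the rate of glycolysis and was named after its values were seen, also rose, with a log2 fold change of 0.48 (SE 0.09).

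**Figure D3:**
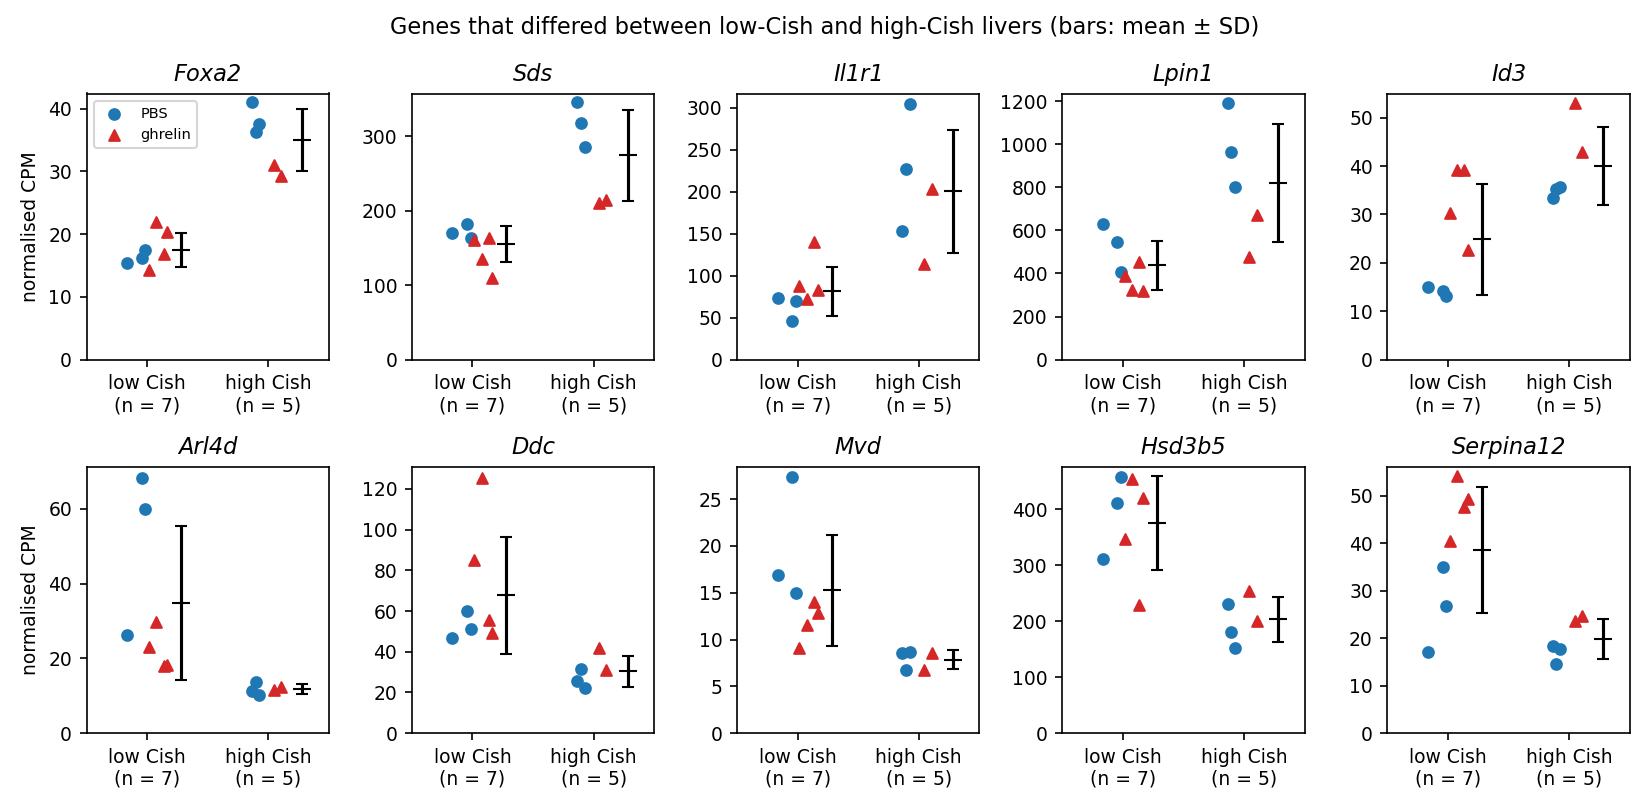
Normalised CPM of 10 called genes in low-Cish (n = 7) and high-Cish (n = 5) livers, 1 point per liver, blue circles for PBS and red triangles for ghrelin, with mean ± SD as bars. Foxa2, Sds, Il1r1, Lpin1 and Id3 are higher in high-Cish livers, and Arl4d, Ddc, Mvd, Hsd3b5 and Serpina12 lower; Foxa2 ranges from 29.2 to 41.1 CPM in high-Cish and from 14.3 to 21.9 CPM in low-Cish livers.

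Among the called lower genes with a standard symbol Arl4d, a small GTPase of the ARF family, came next to Bcl6 in fold change. Arl4d was at 11.4, 13.8 and 10.1 CPM in the high-Cish PBS livers and at 11.6 and 12.5 CPM in the high-Cish ghrelin livers. The low-Cish livers held 26.3, 68.3 and 60.0 CPM with PBS and 23.0, 29.6, 17.9 and 18.1 CPM with ghrelin. The high-Cish values were tight and lay below all others, and the log2 fold change was -1.56 (SE 0.27, adjusted p = 0.0303). Ddc, the enzyme that decarboxylates aromatic L-amino acids to dopamine and serotonin, was at 22.0 to 42.0 CPM in high-Cish and 46.7 to 126 CPM in low-Cish livers, also without overlap (-1.05, SE 0.20, adjusted p = 0.0428). Of the called genes with model names, which were picked out after their values were seen, D0H4S114 had 1.83 to 2.91 against 3.47 to 11.6 CPM (-1.74, SE 0.29) and 8430408G22Rik had 19.0 to 64.1 against 67.7 to 124 CPM (-1.44, SE 0.27). GENCODE M21 lists them as Nrep and Depp1.

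Enzymes of sterol and steroid metabolism were among the other lower genes. Mvd, the mevalonate diphosphate decarboxylase of cholesterol synthesis, was at 6.70 to 8.66 CPM in high-Cish and 9.05 to 27.4 CPM in low-Cish livers (log2 fold change -1.0, SE 0.18, adjusted p = 0.0335). Hsd3b5, a steroid dehydrogenase of male mouse liver, was at 152 to 253 against 229 to 457 CPM (-0.88, SE 0.17, adjusted p = 0.0428). For Hsd3b5 the highest high-Cish liver, ghrelin 2, and the lowest low-Cish liver, ghrelin 5, crossed. Hsd17b2, which oxidises estradiol and testosterone, had a log2 fold change of -0.42, and the carboxylesterase Ces2c one of -0.72. Aadat, an aminotransferase of kynurenine and lysine breakdown, had one of -0.54. Serpina12, the adipokine vaspin, was at 14.6 to 24.7 CPM in high-Cish and 17.0 to 54.0 CPM in low-Cish livers (-0.80, SE 0.15, adjusted p = 0.0376). PBS 1 was the low-Cish liver that reached into the high-Cish range of Serpina12.

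The remaining named genes on the lower side had log2 fold changes from -0.65 to -0.40. Dlc1, a GTPase activator for RhoA, was at 34.0 to 42.3 CPM in high-Cish and 45.5 to 56.7 CPM in low-Cish livers, a log2 difference of -0.45 (SE 0.07, adjusted p = 0.0202). The sorting nexin Snx29 (-0.65), the spectrin-repeat gene listed as SYNE1 (-0.51) and Wwc1, a regulator of Hippo signalling (-0.40), had no overlap either. Frmd4b (-0.46), a FERM domain protein, had a small overlap over all livers, from 46.4 to 62.9 against 54.9 to 85.6 CPM, and none within either treatment. Frmd4b and Dlc1 kept their calls in 8 of the 12 fits with a liver left out.

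The 42 genes were compared within each treatment, where 3 high-Cish livers met 3 low-Cish ones with PBS and 2 met 4 with ghrelin. All 42 had the same direction in both, beside 56.2% of all tested genes, and 33 were without overlap within PBS and within ghrelin in the same direction, beside 2.17% of all genes. Both counts come from the contrast that picked the 42 and are read as a description. The fold change was larger with PBS in 34 of the 42. The matching share of all tested genes was not computed, so this count is not read as a trait of the 42. Among the 14169 tested genes, 2560 had an unadjusted p under 0.05 in edgeR's test with PBS alone and 721 with ghrelin alone. The ghrelin count was close to the share of 0.05 that chance alone gives at that p, and the PBS count was well above it. With 2 against 4 livers, the ghrelin count does not show that the states were alike. For Foxa2 the fold change was 1.23 with PBS and 0.70 with ghrelin, for Il1r1 1.86 and 0.73, for Arl4d -2.13 and -0.89, and for Sds 0.88 and 0.57. For Ddc it was -0.99 and -1.12, and for Serpina12 -0.64 and -0.99. PBS livers alone gave 307 called genes (2.17%), 33 of them among the 42, and ghrelin livers alone gave 6 (0.0423%), 1 of them among the 42.

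Whether a difference between the states itself differed between treatments was tested by an interaction term. It passed for 1 gene of 14169 (0.00706%), while 1133 had an unadjusted p under 0.05 (8.0%). That gene was Dynll1, a light chain of dynein that was named after its values were seen, at 14.3, 14.2 and 13.0 CPM in high-Cish and 7.12, 9.20 and 7.35 CPM in low-Cish PBS livers. With ghrelin the order was the opposite, 9.48 and 9.17 CPM in high-Cish against 14.8, 12.4, 12.1 and 13.7 CPM in low-Cish livers. The interaction was -1.31 on the log2 scale (SE 0.18, adjusted p = 0.0435). No gene passed without PBS 1, PBS 2, PBS 3, PBS 4 or PBS 6, or without ghrelin 1, ghrelin 3, ghrelin 5 or ghrelin 6. Dynll1 was not called without ghrelin 4 either. None of the 42 genes passed the interaction test, and the smallest adjusted p among them was 0.225.

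**Figure D4:**
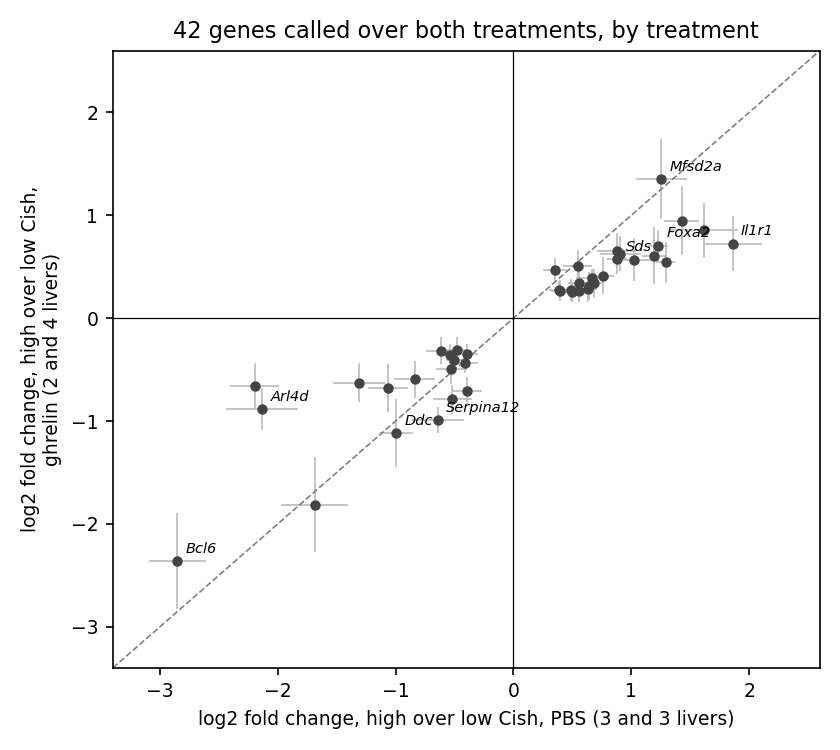
Log2 fold change, high over low Cish, of the 42 called genes in PBS livers alone (horizontal axis, 3 against 3) and in ghrelin livers alone (vertical axis, 2 against 4), with SE as grey bars and the dashed line at equality. All 42 points lie where both axes have the same sign, and 34 are farther from 0 with PBS. The matching share of all tested genes was not computed.

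Beyond Cish and Bcl6, no tested gene on the lists of growth hormone feedback, receptor, JAK and STAT, SOCS and IGF genes was called. The male-biased Hsd3b5, given above, was called lower. Of a list of 17 STAT5 feedback and rapid growth hormone targets other than Cish, 15 were tested and none but Bcl6 passed (0.127% of all tested genes were called lower). Bcl6 had been named beforehand, so its call is not read as a result about the list. With Bcl6 included, the unadjusted p was under 0.05 for 1 gene of the list higher and 5 lower. Of the log2 fold changes 4 were positive and 11 negative. The median of the list was -0.17, beside 0.00 over all tested genes, and -0.09 without PBS 3. Over all tested genes 50.2% had a positive log2 fold change, and 8.0% were higher and 6.0% lower at an unadjusted p under 0.05. Socs2, a further feedback inhibitor that growth hormone is known to induce, was at 16.2, 4.48 and 30.4 CPM in the high-Cish PBS livers and 8.67 and 9.55 CPM in the high-Cish ghrelin livers. The low-Cish livers held 10.5, 20.7 and 15.1 CPM with PBS and 13.2, 26.6, 3.34 and 21.3 CPM with ghrelin. Socs2 thus spread over the same range in both states, and its log2 difference was -0.29 (SE 0.46, adjusted p = 0.824). Socs3 was at 20.1 to 47.6 against 8.90 to 59.3 CPM (0.70, SE 0.34, adjusted p = 0.371), and Socs1 and Cux2 were below the count filter. Onecut1, a transcription factor that growth hormone induces, differed by 0.63 on the log2 scale (SE 0.35), and Tox, a nuclear factor higher in female liver, by 1.03 (SE 0.27, adjusted p = 0.115).

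Neither the receptor nor its kinase passed. Ghr, the growth hormone receptor, was at 621 to 646 CPM in the high-Cish and 653 to 776 CPM in the low-Cish livers. These ranges did not overlap, yet the log2 fold change of -0.17 (SE 0.05) did not pass (adjusted p = 0.168). Jak2 had a log2 fold change of 0.10, Stat5a 0.11, Stat5b -0.06 and the prolactin receptor Prlr -0.08, all with adjusted p above that of Ghr. Stat3, the factor of interleukin 6 signalling, was at 190 to 297 against 135 to 216 CPM (0.50, SE 0.12, adjusted p = 0.0879). Of 26 genes of the receptor, JAK and STAT machinery none passed, with 5 higher and 2 lower at an unadjusted p under 0.05 (beside 8.0% and 6.0% of all genes). Igf1, the circulating growth factor made in liver, was at 459 to 623 against 476 to 627 CPM (-0.07, SE 0.07), and Igfals, which carries it in blood, differed by -0.22 (SE 0.08, adjusted p = 0.251). The nuclear receptor Nr0b2 (-0.54), Igfbp1 (-0.56) and Fgf21 (-1.90) did not pass either.

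Most genes with higher expression in male liver had a negative log2 fold change. Of 37 male-biased genes 35 did and 2 had a positive one, beside 50.2% positive over all tested genes. At an unadjusted p under 0.05, 21 were lower and 1 higher, beside 6.0% and 8.0% of all genes. The median was -0.31. Of the 37 genes 1 was called, beside 0.127% of all genes called lower, and it was Hsd3b5. Hsd3b2, a close relative of it, had -0.56 (SE 0.12, adjusted p = 0.0647), and Cyp7b1, an oxysterol hydroxylase, was at 218 to 426 against 245 to 970 CPM (-0.87, SE 0.21, adjusted p = 0.104). Cyp4a12a, a male-specific fatty acid hydroxylase, had -0.24 (SE 0.14), and PBS 1 held the lowest low-Cish level of Cyp7b1. Of the 17 tested major urinary protein genes, pheromone carriers made by male liver, all had a negative log2 fold change, 16 with an unadjusted p under 0.05 (6.0% of all genes were lower at that p), and none passed. Mup20 had -0.34 (SE 0.14), Mup7 -0.60 (SE 0.15) and Mup12 -0.74 (SE 0.17), with a median of -0.74 over the family. These genes are near-identical and share reads, so the family counts as few independent values, and Mup20 is on both lists. Their summed level was 9828 to 14595 CPM in high-Cish and 10901 to 16533 CPM in low-Cish livers. Of 28 tested female-biased genes 23 had a positive log2 fold change, with 6 higher and 3 lower at an unadjusted p under 0.05, a median of 0.26 and no call (background 50.2% positive, 8.0% higher and 6.0% lower). The median was 0.48 without PBS 1 and 0.10 without ghrelin 4. The 3 members lower at an unadjusted p under 0.05 were Ttc39c, at 243 to 372 against 334 to 459 CPM (-0.36, SE 0.07, adjusted p = 0.0592), the estrogen sulfotransferase Sult1e1 (-1.19, SE 0.35, adjusted p = 0.150) and Dct (-0.59, SE 0.19, adjusted p = 0.172). On the positive side Tox, given above, had 1.03, and Cyp2b10, a cytochrome that is also on the xenobiotic list, had 1.35 (SE 0.56, adjusted p = 0.292).

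Most acute phase genes, which hepatocytes express in inflammation, had a positive log2 fold change. Of 29 tested, 26 had a positive log2 fold change, 22 were higher and 0 lower at an unadjusted p under 0.05, the median was 0.42, and 2, Il1r1 and Saa4, passed. Over all tested genes these shares were 50.2% positive, 8.0% higher and 6.0% lower, and 0.169% were called higher. Of the called members Il1r1 encodes a receptor and Saa4 the constitutive serum amyloid A, and the other members of the list did not pass. Saa1 was at 321, 1225 and 1159 CPM in the high-Cish PBS livers and 168 and 697 CPM in the high-Cish ghrelin livers. In the low-Cish livers it was at 47.9, 43.3 and 59.9 CPM with PBS and 76.4, 50.9, 484 and 41.6 CPM with ghrelin. All low-Cish livers but ghrelin 5 lay below all high-Cish livers, and the log2 fold change of 2.99 (SE 0.78) had an adjusted p of 0.111. Saa2, a near-identical copy, followed Saa1 with 4.10 (SE 1.28, adjusted p = 0.167). The log2 difference was 0.59 for Itih4 (adjusted p = 0.0679) and 0.40 for the heme carrier Hpx (adjusted p = 0.0843). The metal-binding Mt2 was at 149 to 593 against 11.1 to 265 CPM (2.32, SE 0.74, adjusted p = 0.172), and the zinc importer Slc39a14 had 0.59 (SE 0.16). Markers of neutrophils summed to 8.43 to 11.4 CPM in high-Cish and 3.98 to 15.8 CPM in low-Cish livers, with 0 of 6 tested members at an unadjusted p under 0.05 and 1 of 12 listed at 0 in every library.

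**Figure D5:**
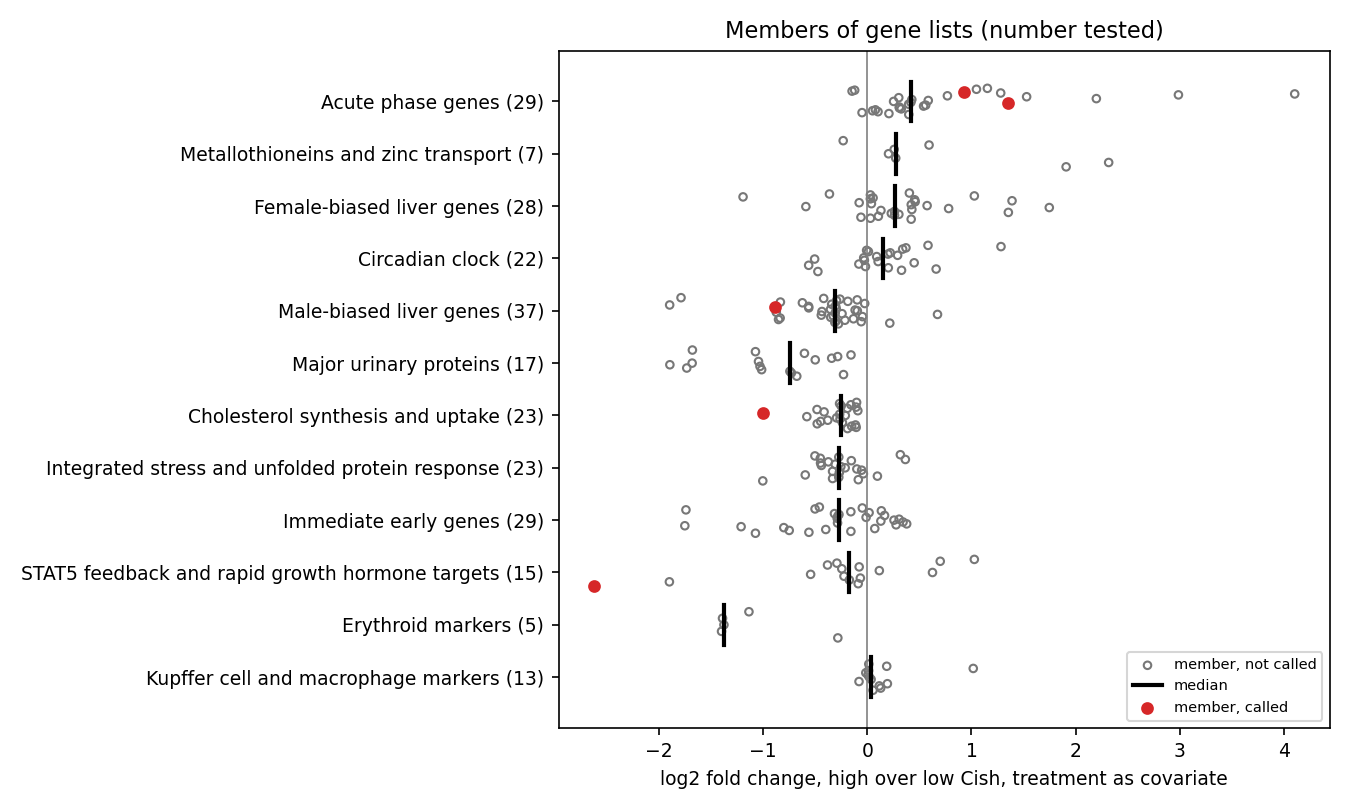
Log2 fold change, high over low Cish, of the tested members of 12 gene lists, 1 point per gene, red where called, with the median of each list as a black bar. The median is 0.42 for acute phase genes, -0.31 for male-biased genes, -0.74 for major urinary proteins, -1.38 for erythroid markers and 0.04 for Kupffer cell markers.

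All 23 tested genes of cholesterol synthesis and uptake had a negative log2 fold change, 11 of them with an unadjusted p under 0.05, with a median of -0.25, and Mvd passed. Of all tested genes 6.0% were lower at that p and 0.127% were called lower. Insig1, a sterol-controlled anchor of SREBP processing, was at 228 to 267 CPM in high-Cish and 292 to 550 CPM in low-Cish livers, without overlap (-0.58, SE 0.12, adjusted p = 0.0647). Fdft1, squalene synthase, had -0.48 (SE 0.13) and Mvk, mevalonate kinase, -0.41 (SE 0.12). Of 27 genes of fatty acid and triglyceride synthesis, 15 were positive and 12 negative with a median of 0.04 (-0.06 without ghrelin 4), and Lpin1 passed. At an unadjusted p under 0.05, 2 of them were higher and 1 lower. Of 23 genes of the insulin and fasting response, 4 were higher and 7 lower at that p, and Lpin1 alone passed. Of all tested genes 8.0% were higher and 6.0% lower at that p, and 0.169% were called higher. The median of the insulin and fasting genes was -0.19. Without PBS 1, PBS 5, ghrelin 1 or ghrelin 4 that median lay between -0.09 and -0.07. Trib1 had 0.59 (SE 0.14, adjusted p = 0.0879), G6pc -0.77 (SE 0.25) and the glycogen-targeting Ppp1r3g -1.17 (SE 0.39).

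Genes of amino acid metabolism had a median of 0.04, which ranged from 0.00 without PBS 5 to 0.07 without PBS 1. Sds was the called one among 24, beside 0.169% of all tested genes called higher. At an unadjusted p under 0.05, 5 were higher and 0 lower (background 8.0% and 6.0%). Of 23 glucocorticoid-induced genes, on whose list Sds also stands, Sds passed, 8 were higher and 2 lower at an unadjusted p under 0.05 (background 8.0% and 6.0%), and the median was 0.10, with 0.05 without ghrelin 1, 0.06 without ghrelin 2 and 0.07 without ghrelin 3. Fkbp5, a chaperone partner of the glucocorticoid receptor, was at 141 to 184 against 33.0 to 92.5 CPM with PBS but at 81.4 and 83.0 against 38.3 to 99.5 CPM with ghrelin (1.08, SE 0.32, adjusted p = 0.151). Of the 23 genes of the integrated stress and unfolded protein responses, 1 was higher and 8 lower at an unadjusted p under 0.05 (background 8.0% and 6.0%). They had 3 positive and 20 negative log2 fold changes, a median of -0.27 and no call (background 50.2% positive). Their median was -0.08 with PBS alone and -0.37 with ghrelin alone. Among them Asns had -1.0 (SE 0.33), Atf5 -0.33 (SE 0.09) and Pdia4 -0.37 (SE 0.12). None of the 22 clock genes passed, with 6 higher and 1 lower at an unadjusted p under 0.05 (background 8.0% and 6.0%). Usp2 had 1.28 (SE 0.45), Bhlhe40 0.33 (SE 0.10), Per1 0.29 (SE 0.10) and Cry1 -0.56 (SE 0.20), and the median of the list was 0.15. That median was 0.10 without PBS 2, 0.07 without PBS 5 and 0.09 without ghrelin 4.

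Immediate early genes, which respond within minutes to stimuli, had medians of opposite sign in the treatments, as did other lists. The median over 29 tested genes was -0.27 over both treatments, -0.54 with PBS and 0.19 with ghrelin, and none passed. The median over both treatments depended on single livers: it was -0.02 without PBS 5 and between -0.18 and -0.15 without PBS 1, PBS 2, PBS 3, ghrelin 1 or ghrelin 5. Nr4a1 was at 0.554 to 1.68 CPM in high-Cish and 5.87 to 12.5 CPM in low-Cish PBS livers (log2 fold change -3.24), against 0.564 and 3.70 CPM and 0.288 to 3.87 CPM with ghrelin (0.22). Fos had -2.36 with PBS and 0.30 with ghrelin, and the antiproliferative gene Btg1 -1.02 and -0.07. The interaction had an adjusted p of 0.425 for Nr4a1, 0.315 for Fos and 0.151 for Btg1. Egr1 had -0.80 (SE 0.45) and Myc 0.14 (SE 0.30) over both treatments. Medians of opposite sign were not particular to the immediate early list. For cell cycle genes the median was 0.66 with PBS and -0.12 with ghrelin, and for heat shock genes 0.43 and -0.14. Of all tested genes 56.2% had the same sign in both treatments.

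Red cell markers were the cell type markers with the largest median difference. The 5 tested erythroid markers all had a negative log2 fold change, each with an unadjusted p under 0.05 (6.0% of all genes were lower at that p), a median of -1.38 and no call. Hbb-b1, a globin of the hemoglobin beta chain, was at 24.6, 34.6 and 13.0 CPM in the high-Cish PBS livers and 14.4 and 52.8 CPM in the high-Cish ghrelin livers. The low-Cish livers held 69.8, 99.6 and 75.6 CPM of it with PBS and 38.3, 114, 78.9 and 38.1 CPM with ghrelin, a log2 difference of -1.39 (SE 0.35, adjusted p = 0.108). Hba-a1 had -1.40 and its near-identical copy Hba-a2 -1.38. Alas2, a marker that is not a globin, differed by only -0.28 (SE 0.09). It was at 65.0 to 110 CPM in high-Cish and 94.9 to 123 CPM in low-Cish livers, with overlap. The markers listed summed to 87.0 to 192 CPM in high-Cish and 167 to 317 CPM in low-Cish livers, and none was at 0 in every library. Alas2 was above Hbb-b1 in every liver, so this sum is not a globin level alone. In whole liver, fewer cells of a type and less RNA per cell cannot be told apart, and the part of blood in the differences above was not tested. Kupffer cell and macrophage markers summed to 371 to 482 against 278 to 464 CPM with a median log2 fold change of 0.04 (-0.05 without PBS 1, 0.115 without PBS 5), endothelial markers to 586 to 643 against 571 to 630 CPM, and stellate and fibroblast markers to 516 to 560 against 499 to 578 CPM. The Kupffer cell gene Cd5l had 0.19 (SE 0.16) and the neutrophil receptor Csf3r 0.25 (SE 0.20). Hepatocyte markers had a median of 0.00 (-0.03 to 0.04 with 1 liver left out), with 7 of 14 positive.

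The STAT5 core motif was also searched in the windows of the called genes. Of 16 called higher genes with a RefSeq window 0 held TTCNNNGAA, and of 12 called lower genes 1 did, which was Bcl6, against 8.64% of tested genes. These shares say only which letters stand in the windows.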

How the data were processed

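The authors deposited raw exon counts per gene, whole numbers without normalisation. Per the labels' protocols, 250 ng of liver RNA went into a stranded total RNA kit with depletion of ribosomal RNA, 12 PCR cycles and 125 sequencing cycles from each end. The aligner was STAR 2.4.0i with the mm10 genome, per the submitters' processing notes; which counting tool, annotation and strand setting were used is not given in the sources used here. Near-identical, overlapping and antisense genes are therefore uncertain. Titles and treatment labels gave treatment and replicate number. No label says that each library is a separate animal, and otherwise the p-values cover only technical spread between samples. Libraries of a treatment differed by 11.7 to 48.6 times counting variance. PCR copies are not independent molecules.

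The state of each library was computed from the Cish count and the column sum. Genes were kept by filterByExpr of edgeR 4.0.16 grouped by treatment (minimum count 10, minimum total 15), 14169 without Cish, of 27410 with a count and 38087 in all. TMM factors and the quasi-likelihood F test, not robust (biological coefficient of variation 0.131), two-sided, in R 4.3.3, gave log2 fold changes high over low, and calls were made at an adjusted p under 0.05. The SE is the absolute log2 fold change over the square root of F. CPM in the text uses TMM factors except where the library total is named. Totals were compared over 792 assignments. limma 3.58.1 and DESeq2 1.42.0 served alternatives. The scripts were tested on simulated data.

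The members and lists were chosen with earlier results of these data known. Named genes were the 15 highest and 15 lowest fold changes among called genes with a standard symbol and at least 1 CPM, up to 4 members per list by smallest unadjusted p, given in part, and a preset group of growth hormone and metabolic genes. Those named later are said to be. A listed marker is not reported here. Positions come from GENCODE M21 and promoter windows from RefSeq, of which 9133 matched a tested gene.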

Additional observations from a re-analysis of the deposited data

Results flagged for a closer look

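Single livers lay far from the others of their state in 14 of 182 examined combinations of a state with a gene or the library total. Chance alone gives about 1 in 20 for independent combinations. The 14 were not independent, since the Mup genes share reads and Saa1 and Saa2 are near-identical. Each gap exceeded the limit of Dixon's test on log2 CPM. Ghrelin 5 stood above the other low-Cish livers for Phlda1 (23.7 CPM), Phf15 (20.3 CPM), Saa4 (407 CPM), Saa1 (484 CPM), Saa2 (386 CPM) and Itih4 (2878 CPM), of which Saa1, Saa2, Saa4 and Itih4 are on the acute phase list. PBS 1 stood below the other low-Cish livers for Cyp7b1 (245 CPM), Mup7 (367 CPM), Mup12 (38.9 CPM) and Mup14 (19.8 CPM), and above them for Prlr (126 CPM). PBS 5 stood below the other low-Cish livers for Pex26 (14.8 CPM). PBS 4 stood above the other high-Cish livers for Igf1 (623 CPM) and Myc (4.16 CPM). Dynll1 differed between treatments in its difference between the states, by -1.31 on the log2 scale (ghrelin minus PBS), from 0.81 with PBS and -0.51 with ghrelin.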

How the results depend on the processing

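The 42 calls (24 higher, 18 lower) were 310 (190 and 120) with DESeq2, 836 (467 and 369) with no filter, 8 (5 and 3) without the treatment covariate and 3 (1 and 2) with log2 Cish as a continuous covariate. They were 236 (147 and 89) with ghrelin 2 counted as low, 0 (0 and 0) with PBS 5 counted as high, 307 (154 and 153) in PBS livers alone and 6 (1 and 5) in ghrelin livers alone. Robust estimation gave 29, 10 of them lower. With a replicate block the count was 0 (0 and 0), with 817 genes at an unadjusted p under 0.05 in edgeR's test. The numbers are not said to pair animals: same-numbered livers had correlations of -0.149 to 0.392, 3 of 6 above 0.1, and 4 of 12 livers correlated best with their own number. With 1 liver left out at a time the calls ranged from 3 to 253, 2 to 157 higher and 1 to 96 lower. Other scalings, limma-voom and a filter at 1 CPM gave 40 to 44 calls. The 42 genes were all among the calls of DESeq2 and of the fit with no filter. The interaction was called for 68 genes with DESeq2, for 344 with no filter and for 0 to 8 with 1 liver left out. The cause of these changes was not tested.

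The difference in total counts was -9870 without the 50 most abundant genes, -757368 in PBS livers alone, and -446624 to 1085219 with 1 liver left out. None of the named called genes changed direction, in fits that reuse the libraries that picked them. Among genes that were not called, the direction reversed in ghrelin livers alone for Igfbp1 (0.0684), Nr4a1 (0.215), Fos (0.302), Cd5l (-0.0873), Prlr (0.22) and Stat5b (0.162), and in PBS livers alone for Socs2 (0.125), Jak2 (-0.0287) and Stat5a (-0.00314). It reversed with the replicate block for Igfbp1 (0.477), Cry1 (0.0681), Nr0b2 (0.201), Onecut1 (-0.429), Stat5b (0.332), Egr1 (1.1), Sult1e1 (0.109) and Myc (-0.385), and for Stat5a with ghrelin 2 counted as low (-0.118) or left out. With 1 liver left out Stat5a ranged from -0.0702 (without ghrelin 2) to 0.208, Prlr from -0.149 to 0.0564 (0.0301 without PBS 2 and 0.0564 without PBS 1), and Myc from -0.0892 (without PBS 4) to 0.458, with -0.0159 without PBS 1. Of the list medians, 15 of 35 kept their sign in every setting, among them those of acute phase, male-biased, female-biased, major urinary protein, cholesterol and erythroid genes. Genes under about 1 CPM are limited by counting. With 5 against 7 livers and states set on a measured transcript, the counts of calls hold for these libraries.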
